A study of Homo sapiens with 12 samples.

Results

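The 42 genes described here are the core machinery of autophagy together with the transcription factors and lysosomal proteins that control or carry out the last step of the pathway. They were listed by name, with earlier results of these data known, from the 26364 genes counted by RNA-seq, as a set that insulin is expected to lower, and all 42 were found in the count table under their listed symbols. Of them, 39 were among the 13852 genes that passed the filter on low counts and were tested. Autophagy is the process by which a cell wraps cytoplasm in a double membrane, the autophagosome, and delivers it to the lysosome for digestion. In hepatocytes it supplies amino acids, lipids and glucose in the fasted state. Insulin is known to restrain it, at the level of proteins through mTORC1, which phosphorylates ULK1 and TFEB, and at the level of transcripts through the FOXO and MiT/TFE factors, which switch on autophagy and lysosome genes.

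The libraries came from HepG2 cells, an established line derived from a human liver cancer, taken 0, 5, 10, 30 and 240 min after insulin was added. Each time has 2 replicates, which makes 10 libraries. No library without insulin was taken at 5, 10, 30 or 240 min, so a change due to insulin and one due to elapsed time in the medium cannot be told apart. The study's methods call the RNA-seq samples biologically independent and the experiment a single one, so p-values measure the spread between samples of that experiment. The labels do not name separate cultures. The treatment text of every library, those at 0 min included, gives 16 h in EMEM medium followed by EMEM with BSA and 3 nM insulin for 5 min, whereas the titles give the times used here. The insulin receptor (IR) ChIP-seq of 1 library of the same line, with 3 nM insulin in its treatment text, gave a list of 1971 peaks. Between 18347109 and 45005769 reads were counted per library, with the fewest in 240 min replicate 2 and the most in 0 min replicate 2. The libraries held hepatocyte transcripts at high level, with a summed level of 12 hepatocyte markers of 51544 to 63676 TPM, a level scaled for transcript length and depth. The summed level of 15 markers of other cell types was 120.2 to 153.2 TPM, almost all of it from CD68 and ACTA2, with PTPRC, MARCO, STAB2, DCN, CD3E, MS4A1 and HBB listed at 0 TPM in every library. These sums were 61869 and 51544 TPM for the hepatocyte markers at 240 min and 63676 and 62877 TPM at 0 min, and 120.2 and 128.3 TPM against 134.3 and 136.8 TPM for the others. Their part in the results below was not tested, and in bulk RNA fewer cells and less RNA per cell cannot be told apart.

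Levels per transcript length spread over a wide range at all times. Averaged over the 10 libraries, the highest were those of CTSB, a lysosomal cysteine protease (275 TPM), GABARAP (262 TPM), the aspartic protease CTSD (254 TPM), the lysosomal membrane protein LAMP1 (239 TPM) and the cargo receptor NBR1 (198 TPM). The order of CTSB, GABARAP, CTSD and LAMP1 is not resolved, since the ranges of neighbouring genes over the libraries overlap (224.8 to 299.8 TPM for CTSB and 237.8 to 286.8 TPM for GABARAP). Among the kinases and lipid transfer proteins at the start of the pathway levels were lower, with 10.1 TPM for ULK1 and 7.70 TPM for ATG2A. Lowest of the tested members were MCOLN1 (4.60 TPM), a lysosomal calcium channel, and ATG4A (4.56 TPM), a protease, whose ranges overlap as well. Too low to test were ULK2, a paralog of ULK1, with 0 to 4 reads per library, MITF, with 5 to 12 reads, and MAP1LC3A, with 2 reads in 1 library and 0 in the other 9.

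**Figure D1:**
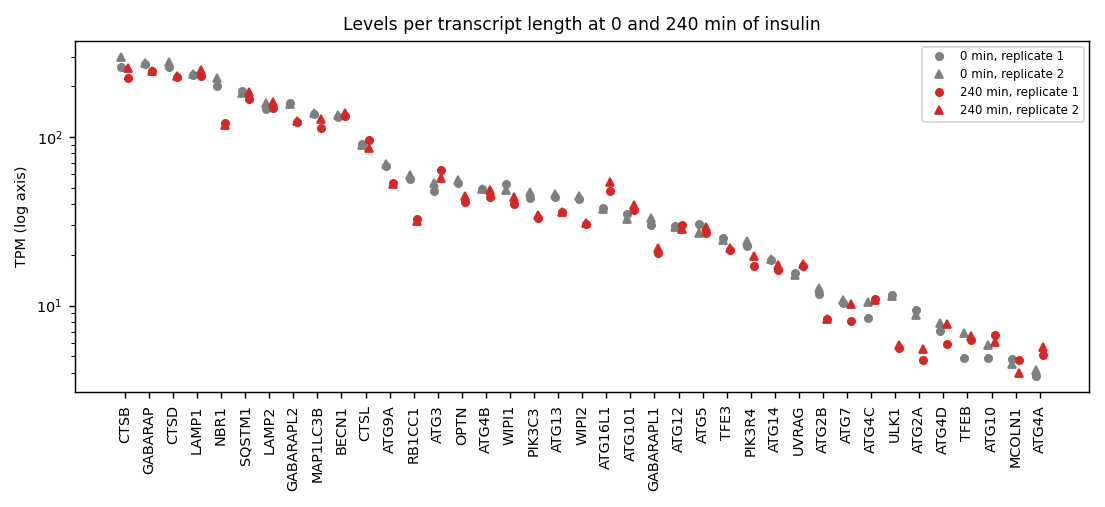
Level per transcript length (TPM, log axis) of the 39 members tested, ordered by their mean over all libraries, in each library at 0 min (grey) and 240 min (red), with circles for replicate 1 and triangles for replicate 2. The levels run from over 200 TPM for CTSB to under 6 TPM for ATG4A, and the red points of ULK1, RB1CC1, NBR1 and ATG2A lie clearly below the grey ones.

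During the first 30 min of insulin no member passed an adjusted p of 0.05 by edgeR, where the Benjamini-Hochberg adjustment runs over all tested genes. At 5 min, where 0% of all tested genes passed in either direction, 0 of 39 members did, at 10 min 0 of 39 against a background of 0.137%, and at 30 min 0 of 39 against 0.332%. Unadjusted p-values under 0.05 were found for 6, 2 and 3 members at 5, 10 and 30 min, and for 1976, 710 and 1125 of all tested genes. With DESeq2, with edgeR's likelihood ratio test and under every other alternative run, the count of called members at these times was also 0. DESeq2, however, gave an adjusted p to only 693 genes at 5 min, 9823 at 10 min and 11435 at 30 min. A member without one was counted as not called, so its count of 0 at 5 min says little. The median log2 fold change of the 39 members was -0.034 at 5 min, -0.0084 at 10 min and 0.018 at 30 min, beside medians between -0.0050 and 8.43e-05 for all genes. The smallest adjusted p at each time belonged to ATG2A at 5 min (log2 fold change -0.24 ± 0.084 SE, adjusted p = 0.262), WIPI2 at 10 min (-0.13 ± 0.050 SE, adjusted p = 0.822) and LAMP2 at 30 min (0.15 ± 0.048 SE, adjusted p = 0.368). These comparisons share the 0 min libraries with each other and with the comparison at 240 min.

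**Figure D2:**
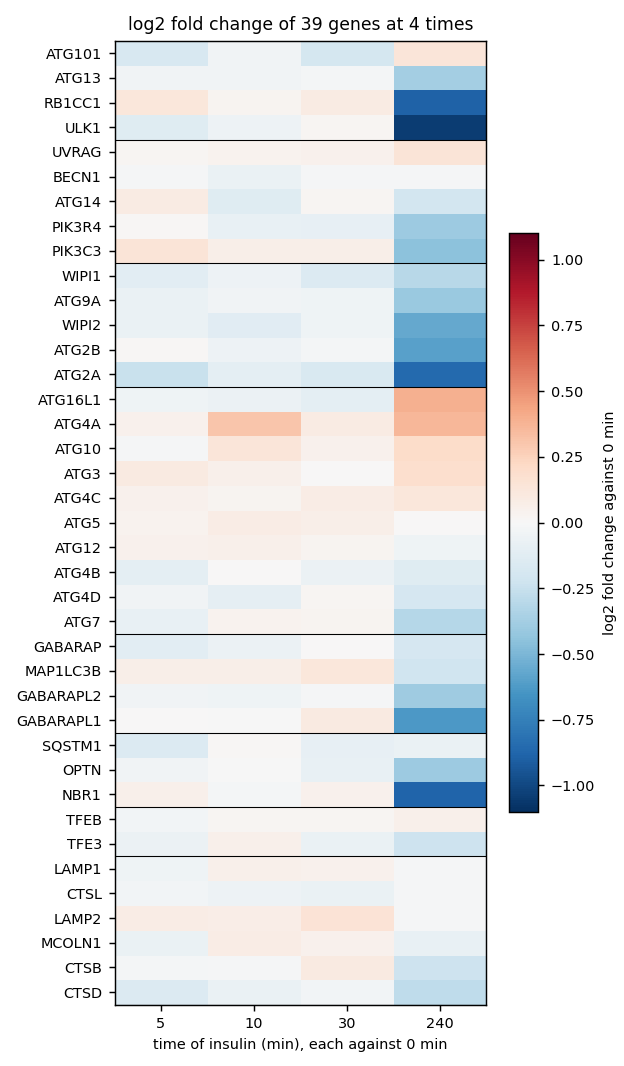
Colours give the log2 fold change of the 39 tested members at 5, 10, 30 and 240 min, each against the same 2 libraries at 0 min, with black lines between the role groups. The first 3 columns are pale, within -0.24 and 0.31, and the column at 240 min runs from -1.05 (ULK1) to 0.39 (ATG16L1).

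By 240 min the set had moved. Of the 39 tested members, 21 fell (53.8%, against 20.4% of all tested genes) and 2 rose (5.13%, against 20.6%), with 16 not called. The log2 fold change was below 0 for 30 of the 39, whereas 50.3% of all genes were below 0, and the median was -0.21 against -0.0026 for all genes. For 22 members both 240 min libraries lay below both 0 min libraries (34.9% of all tested genes did so), and for 5 both lay above (34.8% of all genes). The set was described by these counts, and no test of the set as a whole was made. Since it was listed with earlier results known, its share of falls is not independent evidence of a direction. When libraries were scaled by their ERCC spike-ins, the median log2 fold change was -0.32 for the members and -0.12 for all genes. Both medians were thus lower than without this scaling (-0.21 and -0.0026), although fewer members were called. Of all genes 5.26% fell and 2.39% rose, and 8 members fell and 0 rose by edgeR (16 below and 0 above at an unadjusted p under 0.05). These 8 were ULK1, RB1CC1, PIK3C3, ATG2A, ATG2B, WIPI2, GABARAPL1 and NBR1. Spike-ins made up 1.65% and 1.91% of the counts at 240 min and 1.59% of those in each library at 0 min, and whether the amount of RNA per cell changed was not tested. The replicates differed most at 10 min (1.73% and 2.36%), and the spread under this scaling too comes from all 10 libraries. Of all genes 1059 were called at 240 min with this scaling and 5676 without it. What part the 10 min libraries had in this was not tested. No called member changed direction under any alternative.

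**Figure D3:**
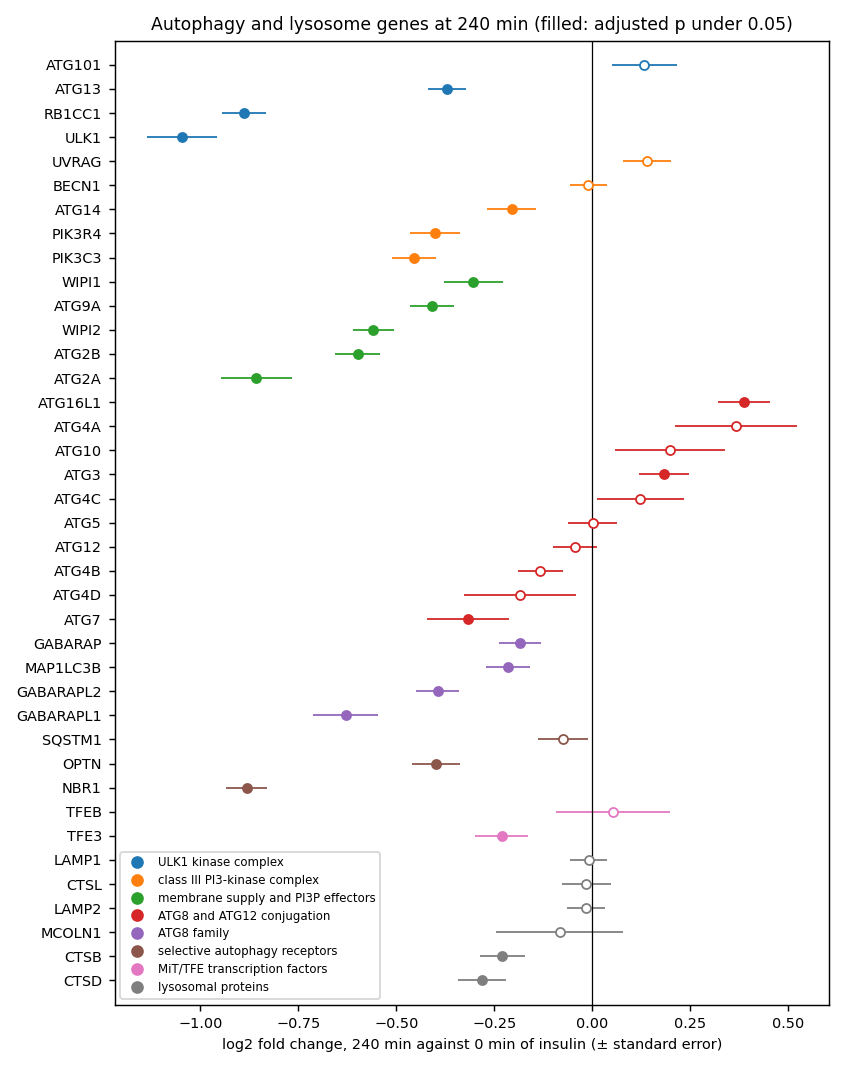
Log2 fold change at 240 min against 0 min with its standard error for the 39 tested members, coloured by role, filled where the adjusted p was under 0.05 and open where it was not. The points left of 0 include every tested member of the membrane supply and ATG8 groups, and the ATG8 and ATG12 conjugation group lies on both sides. With ERCC scaling, the filled points of ULK1, RB1CC1, PIK3C3, ATG2A, ATG2B, WIPI2, GABARAPL1 and NBR1 alone remained called.

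The ULK1 kinase complex, which starts autophagosome formation when nutrients fall, had the lowest median log2 fold change of the role groups, -0.63. Of its 4 tested members 3 fell and 1 was not called. ULK1, the kinase itself (hg19 chromosome 12, 132379279 to 132407707, plus strand), was measured in CPM, counts scaled to library size. It stood at 24.6 and 24.2 CPM in the 0 min libraries, 23.2 and 21.0 CPM at 5 min, 24.2 and 22.6 CPM at 10 min, 26.2 and 22.9 CPM at 30 min, and 11.7 and 11.9 CPM at 240 min. The 8 libraries up to 30 min lay between 21.0 and 26.2 CPM, and both libraries at 240 min lay far below them. Its log2 fold change at 240 min was -1.05 ± 0.090 (SE, adjusted p = 3.57e-08), and only 0.910% of all tested genes had a value as low or lower. RB1CC1 (FIP200), the scaffold of the complex, was measured at 154 and 159.8 CPM in the 0 min libraries, 165 and 176 CPM at 5 min, 158 and 163 CPM at 10 min, 159 and 175 CPM at 30 min, and 86.6 and 82.7 CPM at 240 min. Here too the 240 min libraries did not overlap any earlier one, and the log2 fold change was -0.89 ± 0.056 (SE, adjusted p = 9.94e-10). ATG13, the subunit that mTORC1 phosphorylates, was at 105 and 107 CPM at 0 min and 83.7 and 80.6 CPM at 240 min, without overlap and with a log2 fold change of -0.37 ± 0.049 (SE, adjusted p = 6.17e-06). ATG101, the partner of ATG13, went the other way in value, from 20.7 and 19.0 CPM to 21.1 and 22.2 CPM, with a log2 fold change of 0.13 ± 0.084 (SE, adjusted p = 0.218) that did not pass. Relative to 0 min, ULK1 stood at 0.484, RB1CC1 at 0.540 and ATG13 at 0.773.

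The class III PI3-kinase complex makes the lipid PI3P on the forming membrane. Of its 5 members 3 fell and 2 were not called. PIK3C3 (VPS34), the catalytic subunit, was measured at 53.8 and 58.4 CPM in the 0 min libraries, 61.6 and 62.6 CPM at 5 min, 58.8 and 59.03 CPM at 10 min, 59.1 and 58.97 CPM at 30 min, and 40.8 and 41.4 CPM at 240 min. The 240 min values lay below all 8 earlier ones, with a log2 fold change of -0.45 ± 0.057 (SE, adjusted p = 3.45e-06). PIK3R4 (VPS15), its regulatory kinase, had a log2 fold change of -0.40 ± 0.064 (SE, adjusted p = 5.42e-05). ATG14, which directs the complex to autophagosome formation, fell with a log2 fold change of -0.21 ± 0.063 (SE, adjusted p = 0.0138) and was not called with DESeq2, with ERCC scaling, with limma on TPM at any of 3 settings, without 0 min replicate 2 or without 240 min replicate 1. BECN1, the scaffold shared by all forms of the complex, was at 115 and 117 CPM at 0 min and 114 and 116 CPM at 240 min, with overlapping libraries and a log2 fold change of -0.011 ± 0.047 (SE, adjusted p = 0.877). UVRAG, which takes the place of ATG14 in the endosomal form, had a log2 fold change of 0.14 ± 0.062 (SE, adjusted p = 0.0796).

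All 5 members that supply membrane or read PI3P fell at 240 min. ATG2A and ATG2B are the bridge-like proteins that move lipid into the growing membrane, and WIPI1 and WIPI2 bind PI3P there. ATG2A was measured at 24.6 and 22.5 CPM in the 0 min libraries, 20.1 and 19.3 CPM at 5 min, 22.4 and 20.9 CPM at 10 min, 21.9 and 19.7 CPM at 30 min, and 12.1 and 13.8 CPM at 240 min. Both values at 240 min were lower than all others, with a log2 fold change of -0.86 ± 0.091 (SE, adjusted p = 4.78e-07). ATG2B, its paralog, was measured at 53.6 and 57.0 CPM in the 0 min libraries, 54.5 and 57.3 CPM at 5 min, 54.2 and 52.8 CPM at 10 min, 54.2 and 54.9 CPM at 30 min, and 36.9 and 36.3 CPM at 240 min. Earlier libraries stayed between 52.8 and 57.3 CPM, and the log2 fold change at 240 min was -0.60 ± 0.058 (SE, adjusted p = 1.50e-07). WIPI2, which recruits ATG16L1 to the membrane, was measured at 77.8 and 80.1 CPM in the 0 min libraries, 76.6 and 73.3 CPM at 5 min, 74.1 and 70.7 CPM at 10 min, 76.0 and 77.4 CPM at 30 min, and 53.5 and 53.9 CPM at 240 min. Both 240 min libraries were below 54 CPM and all others above 70 CPM, a log2 fold change of -0.56 ± 0.052 (SE, adjusted p = 1.00e-07). ATG9A, the lipid scramblase whose vesicles seed the membrane, had a log2 fold change of -0.41 ± 0.057 (SE, adjusted p = 1.21e-05), with the reservation that 33.6% of the stretches of 50 bases in its transcripts also occur in another annotated gene. WIPI1 fell, with a log2 fold change of -0.30 ± 0.075 (SE, adjusted p = 0.00318), and was not called with ERCC scaling, with limma at 2 of the 3 settings or without 240 min replicate 1.

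The ATG8 and ATG12 conjugation machinery, which attaches ATG8 proteins to lipid, had few called members, in both directions. Of 10 tested members 2 rose, 1 fell and 7 were not called, with a median log2 fold change of 0.062. These counts do not exceed the shares of all tested genes, 20.6% rising and 20.4% falling. ATG16L1, which with ATG5 and ATG12 fixes the site of lipid attachment, was measured at 52.7 and 51.1 CPM in the 0 min libraries, 53.8 and 46.4 CPM at 5 min, 48.4 and 50.6 CPM at 10 min, 47.3 and 48.7 CPM at 30 min, and 64.6 and 71.1 CPM at 240 min. Both 240 min libraries lay above all 8 earlier ones, with a log2 fold change of 0.39 ± 0.066 (SE, adjusted p = 1.07e-04) that was not called with ERCC scaling. ATG3, the E2-like enzyme, was measured at 35.6 and 35.3 CPM in the 0 min libraries, 37.3 and 38.6 CPM at 5 min, 35.5 and 38.1 CPM at 10 min, 35.3 and 35.8 CPM at 30 min, and 41.9 and 38.3 CPM at 240 min. The 240 min values exceeded both 0 min values but 1 of them lay below a library at 5 min, and the log2 fold change of 0.18 ± 0.064 (SE, adjusted p = 0.0273) was not called with DESeq2, with ERCC scaling, without either 0 min replicate or without 240 min replicate 1. ATG7, the E1-like enzyme common to both conjugations, fell from 13.4 and 14.6 CPM to 10.5 and 12.3 CPM, a log2 fold change of -0.32 ± 0.10 (SE, adjusted p = 0.0202) that was not called with DESeq2, with ERCC scaling, with limma on TPM, without 0 min replicate 2 or without 240 min replicate 1. ATG5 and ATG12, which form the conjugate, had log2 fold changes of 0.00061 ± 0.063 and -0.045 ± 0.056 (SE) and were not called. The other members, ATG10 and the ATG4 proteases ATG4A, ATG4B, ATG4C and ATG4D, ranged from -0.18 (ATG4D) to 0.37 (ATG4A, adjusted p = 0.0673).

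**Figure D4:**
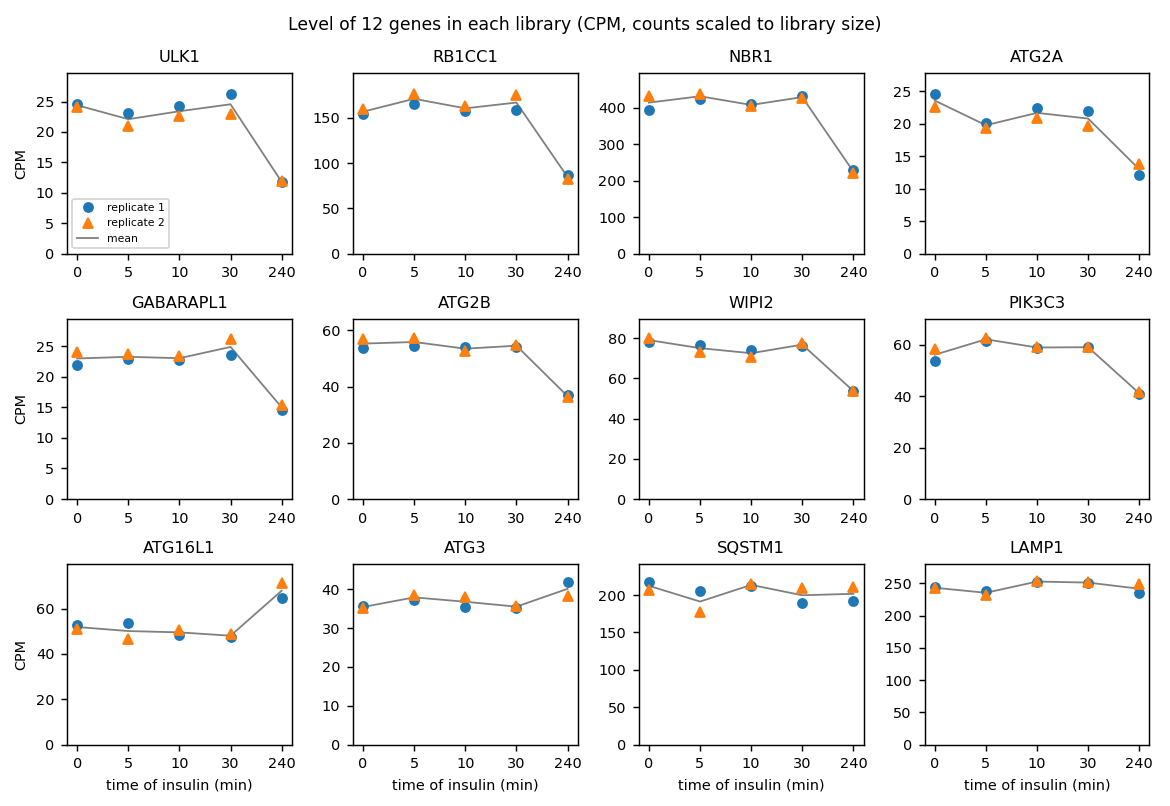
CPM, counts scaled to library size, of 12 members in each library (circles replicate 1, triangles replicate 2, grey line the mean of both) against the time of insulin, with equal spacing between the times. The 8 largest falls have their lowest libraries at 240 min (ULK1 from 24.6 and 24.2 to 11.7 and 11.9 CPM) and no called change before. At each of 5, 10 and 30 min, however, ATG2A and WIPI2 lie below both 0 min libraries and PIK3C3 lies above both. ATG16L1 and ATG3 are higher at 240 min, and SQSTM1 and LAMP1 show overlapping libraries at 0 and 240 min. With ERCC scaling neither ATG16L1 nor ATG3 was called.

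The ATG8 family, the small proteins that coat the autophagosome and hold cargo receptors, had 4 tested members, and all 4 fell, with a median log2 fold change of -0.30. GABARAPL1, a transcript known as a FOXO target in other cells, was measured at 21.9 and 24.1 CPM in the 0 min libraries, 22.9 and 23.6 CPM at 5 min, 22.7 and 23.3 CPM at 10 min, 23.5 and 26.2 CPM at 30 min, and 14.6 and 15.4 CPM at 240 min. Every earlier library lay above 21 CPM and both 240 min libraries below 16 CPM, a log2 fold change of -0.63 ± 0.084 (SE, adjusted p = 7.23e-06). GABARAPL2 was next, with 65.1 and 63.5 CPM at 0 min and 48.8 and 49.0 CPM at 240 min and a log2 fold change of -0.39 ± 0.055 (SE, adjusted p = 1.31e-05). MAP1LC3B, the form of LC3 most used to follow autophagy, fell with a log2 fold change of -0.21 ± 0.056 (SE, adjusted p = 0.00430) and was not called with ERCC scaling, with limma on TPM or without 240 min replicate 1. Its transcripts share 7.54% of their stretches of 50 bases with MAP1LC3B2. GABARAP, the family's most abundant transcript at 262 TPM against 150.0, 140.0 and 30.3 TPM for GABARAPL2, MAP1LC3B and GABARAPL1, fell with a log2 fold change of -0.18 ± 0.054 (SE, adjusted p = 0.00963), which was not called with ERCC scaling, with limma on TPM or without 0 min replicate 2, and 32.6% of its stretches of 50 bases occur in another annotated gene. GABARAPL1, the lowest in level, had the largest fall, and the falls of MAP1LC3B and GABARAP differ by less than their standard errors.

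Among the selective autophagy receptors, which link ubiquitin-marked cargo to ATG8 proteins, 2 of 3 fell. NBR1 (hg19 chromosome 17, 41322488 to 41363708, plus strand) was measured at 395 and 433 CPM in the 0 min libraries, 424 and 439 CPM at 5 min, 409.6 and 406 CPM at 10 min, 431 and 427 CPM at 30 min, and 229.7 and 219.8 CPM at 240 min. Its 8 earlier libraries lay between 394.7 and 438.5 CPM, and the 240 min libraries lay below all of them, at 0.543 of the level at 0 min. The log2 fold change of -0.88 ± 0.052 (SE, adjusted p = 3.67e-10) had the smallest adjusted p of all members. OPTN, a receptor of mitochondria and bacteria, had a log2 fold change of -0.40 ± 0.062 (SE, adjusted p = 3.99e-05). SQSTM1 (p62), the best known of the receptors, was at 217 and 207 CPM at 0 min and 193 and 211 CPM at 240 min. The libraries of the 2 times overlapped, and its log2 fold change was -0.075 ± 0.064 (SE, adjusted p = 0.379). Per length, NBR1 and SQSTM1 were at 213 ± 15.9 and 185 ± 4.03 TPM at 0 min (SD, n = 2).

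The MiT/TFE factors TFEB, TFE3 and MITF bind the CLEAR element, a palindromic E-box found before many lysosomal genes. TFE3, the most abundant of them here at 24.0 TPM against 6.03 TPM for TFEB, fell with a log2 fold change of -0.23 ± 0.068 (SE, adjusted p = 0.0101) and was not called with ERCC scaling, with limma on TPM, without 0 min replicate 1 or without 240 min replicate 1. TFEB was at 4.83 and 6.24 CPM at 0 min and 5.88 and 5.94 CPM at 240 min, with overlapping libraries and a log2 fold change of 0.054 ± 0.15 (SE, adjusted p = 0.800). MITF was at 0.232 and 0.202 CPM at 0 min and 0.400 and 0.316 CPM at 240 min, too few reads to test.

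Of the 6 lysosomal proteins of the set 2 fell and 4 were not called, with a median log2 fold change of -0.049. CTSD was at 226 and 238 CPM at 0 min and 191 and 191 CPM at 240 min, without overlap, a log2 fold change of -0.28 ± 0.060 (SE, adjusted p = 9.30e-04), and 23.0% of its stretches of 50 bases occur in another annotated gene. CTSB, with 402 and 456 CPM at 0 min and 355 and 378 CPM at 240 min, fell with a log2 fold change of -0.23 ± 0.058 (SE, adjusted p = 0.00351) and was not called with ERCC scaling, with limma on TPM or without 0 min replicate 2. CTSD was not called with ERCC scaling. Both are proteases that digest the cargo. The membrane glycoproteins LAMP1 and LAMP2 were at -0.0096 and -0.015 on the log2 scale, the protease CTSL at -0.015 and the channel MCOLN1 at -0.084 (standard errors 0.046, 0.049, 0.063 and 0.16), and the libraries of both times overlapped for all 4.

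The comparison of 240 min with 30 min does not take its fold changes from the 0 min libraries. It shares the 2 libraries at 240 min with the comparison above, and its filter, scaling and spread come from the same model of 10 libraries. Relative to 30 min, 20 members were lower (51.3%, against 18.4% of all tested genes) and 3 were higher (7.69%, against 19.8%), with a median log2 fold change of -0.19 beside -0.00015 for all genes. ULK1 again had the lowest value, -1.07 ± 0.091 (SE, adjusted p = 3.94e-08), followed by RB1CC1 (-0.97), NBR1 (-0.93) and GABARAPL1 (-0.73). The higher members were ATG16L1 (0.50 ± 0.068 SE, adjusted p = 9.69e-06), ATG101 (0.33 ± 0.088 SE, adjusted p = 0.00586) and ATG3 (0.18 ± 0.065 SE, adjusted p = 0.0360). ATG3 was not called with DESeq2, with no filter, with the 2 times alone in the model, with limma on TPM, without either 30 min replicate or without 240 min replicate 1, and ATG101 was not called without 30 min replicate 2. With ERCC scaling 0 members were called higher and 6 lower by edgeR (1 and 9 at an unadjusted p under 0.05), so none of the 3 higher members was called. LAMP2 was lower than at 30 min (-0.17 ± 0.049 SE, adjusted p = 0.0108), where its level was above that of 0 min in value, and was not called with ERCC scaling, with limma on TPM, without 30 min replicate 2 or without 240 min replicate 1. WIPI1 and TFE3, called against 0 min, were not called here (-0.15 and -0.16).

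Other genes of the pathway were followed in 7 lists of 147 genes that are not members, of which 140 were tested. At 240 min 53 of these fell (37.9%) and 15 rose (10.7%), beside 20.4% and 20.6% of all tested genes. These lists too were made with earlier results known. With ERCC scaling 13 fell and 2 rose, beside 5.26% and 2.39% of all genes. With limma on TPM 35 fell, beside 13.0% to 13.3% of all genes, and 11 or 12 rose, beside 19.7% to 20.4%. Without 0 min replicate 2, 40 fell and 8 rose, beside 13.9% and 13.7% of all genes. The shares of all genes falling and rising were 16.6% and 16.7% without 0 min replicate 1. They were 14.7% and 14.5% without 240 min replicate 1, 17.1% and 17.5% without 240 min replicate 2, and 17.7% and 23.0% with upper-quartile scaling. At 30 min 0 of the 140 passed with edgeR or DESeq2 and 1 with the likelihood ratio test, with no filter or with the replicate block, and 11 had an unadjusted p under 0.05. Among 16 subunits of the V-ATPase, the pump that acidifies the lysosome, 8 fell and 2 rose. Its largest fall was ATP6V1H (-0.37 ± 0.067 SE, adjusted p = 2.21e-04) and its largest rise ATP6V0A2, which went from 25.0 and 25.8 CPM to 50.8 and 48.6 CPM (0.97 ± 0.069 SE, adjusted p = 3.96e-09). With ERCC scaling 0 of the subunits fell by edgeR (3 at an unadjusted p under 0.05) and 1 rose, and ATP6V1H was not called (adjusted p = 0.101). With limma on TPM or upper-quartile scaling 5 fell. Without 0 min replicate 1, 4 of the subunits fell, and without 240 min replicate 1, 5 did. Without replicate 2 of either time 1 rose. Of 41 other lysosomal enzymes and membrane proteins 15 fell and 3 rose, led by the cholesterol transporter NPC1 (-0.66 ± 0.047 SE, adjusted p = 4.16e-09) and the protease CTSO (0.59 ± 0.22 SE, adjusted p = 0.0364), the latter with 1.48 and 1.89 CPM at 0 min and 2.88 and 2.31 CPM at 240 min. With ERCC scaling 2 of them fell and 0 rose by edgeR (8 and 0 at an unadjusted p under 0.05), and with limma on TPM 5 fell. Without 240 min replicate 1, 6 of them fell, and without 0 min replicate 2, 9 did. Without replicate 1 of either time 1 rose, and CTSO was not called with DESeq2 (adjusted p = 0.147), with ERCC scaling, with limma on genes of a mean TPM of at least 1, without 240 min replicate 1 or without either 0 min replicate.

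For mTORC1, the kinase complex on the lysosome that restrains autophagy, and its regulators, 12 of 34 fell and 5 rose, and with ERCC scaling 4 fell and 1 rose. For this list and those below, the shares of all tested genes were 20.4% falling and 20.6% rising. With ERCC scaling they were 5.26% and 2.39%. RRAGD, a Rag GTPase that recruits mTORC1 to the lysosome, went from 1.81 and 1.46 CPM to 3.84 and 3.42 CPM (1.197 ± 0.19 SE, adjusted p = 5.35e-05), and TSC1, a subunit of the complex that inhibits mTORC1, from 68.0 and 62.1 CPM to 39.1 and 39.5 CPM (-0.72 ± 0.061 SE, adjusted p = 3.43e-08). Of 7 tested genes of AMPK, the energy sensor that activates ULK1, and its kinase, 3 fell and 1 rose, with PRKAA2, a catalytic subunit, at -0.45 ± 0.057 (SE, adjusted p = 3.81e-06) and PRKAG2 at 0.45 ± 0.17 (SE, adjusted p = 0.0440). With ERCC scaling 2 of them fell and 0 rose by edgeR (3 and 0 at an unadjusted p under 0.05). PRKAG2 was not called with DESeq2 (adjusted p = 0.179), with ERCC scaling, with the 2 times alone in the model, with limma on TPM, without 0 min replicate 2, without either replicate at 10 or 240 min or without 30 min replicate 1. Of 15 other genes of autophagosome formation 7 fell and 1 rose, and with ERCC scaling 4 fell and 0 rose by edgeR (6 and 0 at an unadjusted p under 0.05). TP53INP1, which binds ATG8 proteins, went from 111.4 and 113.6 CPM to 45.8 and 54.0 CPM (-1.18 ± 0.066 SE, adjusted p = 1.45e-10), a larger fall in value than that of ULK1, and WDR45B, a relative of the WIPI proteins, was at 0.13 ± 0.046 (SE, adjusted p = 0.0294), not called with DESeq2 (adjusted p = 0.0724), with ERCC scaling, with no filter, or when any library at 0 or 240 min, or 10 min replicate 2, was left out. Of 13 genes of autophagosome-lysosome fusion 3 fell and 3 rose, near the shares of all tested genes. PLEKHM1 was at -0.66 ± 0.093 (SE, adjusted p = 1.38e-05) and TECPR2 at 0.32 ± 0.062 (SE, adjusted p = 3.99e-04). With ERCC scaling 1 of the 13 fell and 0 rose by edgeR (2 and 0 at an unadjusted p under 0.05), and TECPR2 was not called there or with limma on TPM. Without 0 min replicate 2 or 240 min replicate 2, 1 of the 13 rose. Of 14 other cargo receptors 5 fell and 0 rose by edgeR or DESeq2 (0 also at an unadjusted p under 0.05), with the endoplasmic reticulum receptor CCPG1 lowest (-0.50 ± 0.11 SE, adjusted p = 0.00139). With ERCC scaling 0 fell by edgeR (4 at an unadjusted p under 0.05), and CCPG1 was not called (adjusted p = 0.0547).

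**Figure D5:**
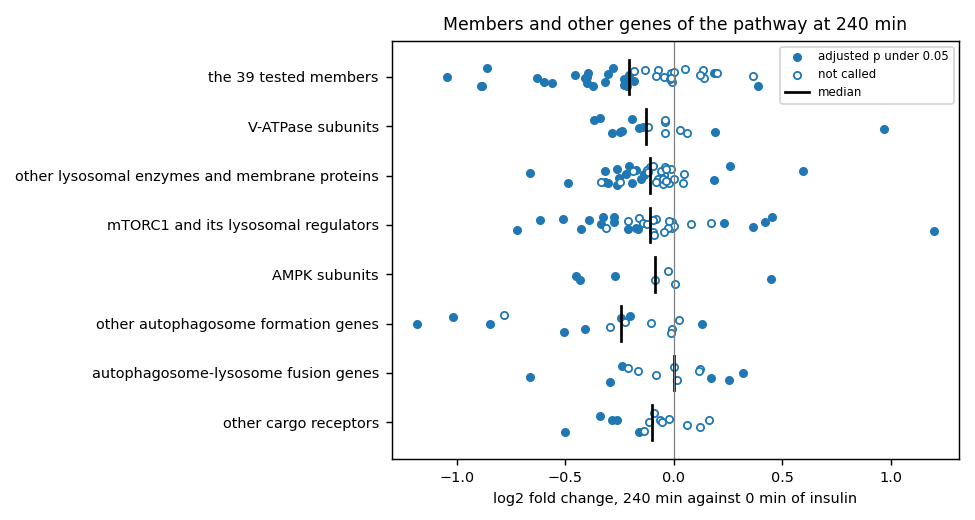
Each point is the log2 fold change of 1 gene at 240 min against 0 min, for the 39 tested members and for the tested genes of 7 other lists, filled where the adjusted p was under 0.05, with a black bar at the median of each list. The medians run from -0.24 (other autophagosome formation genes) to -0.00018 (fusion genes), beside -0.21 for the members.

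The IR peak list was read for peaks within 5 kb of each member's body. Of the 42 members 8 had one, and of the 39 tested 7 (17.9%), a share near the 15.7% of all tested genes. The peaks of WIPI1 (score 25), ATG4A (64), ATG4C (706), MITF (491) and CTSB (50) lay over the start of the gene, those of WIPI1, ATG4A and CTSB with scores below the median of 79. They spanned in hg19 chr17:66453527-66454009 for WIPI1, chrX:107334709-107335030 for ATG4A, chr1:63249212-63249922 for ATG4C and chr3:69788312-69788740 for MITF, and the peak of CTSB was 373 bases wide. That of TFEB (908, chr6:41702180-41703853) lay inside the gene over 2 further annotated start sites. Those of GABARAP (1299, chr17:7142538-7143391) and MCOLN1 (502, chr19:7600190-7600804) lay 347 and 1295 bases past the end of the gene body, on the side away from its start. There the deposited annotation gives PHF23 and PNPLA6 as the nearest gene. The GABARAP peak nevertheless overlapped a GABARAP exon in GENCODE, beyond the gene body used here. The annotation gives the member itself as nearest gene for WIPI1, ATG4C and CTSB, and PSMD10, RN7SL418P and PGC for ATG4A, MITF and TFEB. WIPI1, CTSB and GABARAP fell at 240 min and the others with a peak were not called or not tested. The receptor list comes from 1 library, so there is no replicate check, and none of the 8 largest falls had a peak.

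WIPI1 had the largest called change of the members with a peak over the start of the gene. The 250 bases before its start that lie inside the peak are given, from GRCh37 (the build called hg19), read 5′ to 3′ on the minus strand.
WIPI1, chr17:66453654-66453903, minus strand: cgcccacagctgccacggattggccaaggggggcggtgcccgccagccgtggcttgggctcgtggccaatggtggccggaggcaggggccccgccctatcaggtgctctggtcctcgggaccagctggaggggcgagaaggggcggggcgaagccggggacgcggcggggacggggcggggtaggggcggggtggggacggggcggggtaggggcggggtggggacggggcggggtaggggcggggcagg
They hold 78.8% G and C and none of the motifs searched below.

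Promoters of the members were searched for CACGTG (the E-box core), TCACGTGA (the core of the CLEAR element, which holds the former) and TGTTTAC (a FOXO core) on both strands, from 250 bases before to 50 bases after each start in RefSeq on GRCh38.p14. Of the 42 members 36 were matched, with 46 windows, and UVRAG, RB1CC1, MAP1LC3A, LAMP2, CTSB and ATG4D were not matched. CACGTG was in the windows of 5 of the 36 members, ATG14, ATG3, CTSD, LAMP1 and MCOLN1, and in those of 8.77% of all 27305 genes. TCACGTGA was in those of 3 members, ATG3, LAMP1 and MCOLN1, and of 1.18% of all genes. TGTTTAC was in that of CTSL alone and in those of 4.19% of all genes. The windows of 30 bases below show E-boxes of each of the 5 genes, in capitals, on the gene's own strand, with 1 of the 6 in LAMP1 and 1 of the 2 in ATG3. They were chosen after the values at 240 min were seen and set 2 members that fell (CTSD and ATG14) beside 1 that rose (ATG3) and 2 that were not called (LAMP1 and MCOLN1).
LAMP1, chr13:113297199-113297228, plus strand: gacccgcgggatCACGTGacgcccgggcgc
MCOLN1, chr19:7522571-7522600, plus strand: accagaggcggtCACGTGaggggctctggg
MCOLN1, chr19:7522598-7522627, plus strand: gggctaccgggtCACGTGaccgaggcacag
ATG3, chr3:112561940-112561969, minus strand: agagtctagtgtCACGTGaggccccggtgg
CTSD, chr11:1763957-1763986, minus strand: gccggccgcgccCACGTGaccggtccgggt
ATG14, chr14:55411834-55411863, minus strand: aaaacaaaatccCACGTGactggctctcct
The printed E-box begins 28 bases before the start in LAMP1, 41 and 14 bases before it in MCOLN1, 47 before it in CTSD and 21 before it in ATG14, and at base 6 after it in ATG3. Those of LAMP1, MCOLN1 and ATG3 belong to the longer CLEAR core, and those of CTSD and ATG14 do not. A match is a description of the letters and not a site, and no binding of a MiT/TFE factor was measured here.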

How the data were processed

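RNA-seq of HepG2 cells was analysed at 5 times with 2 replicates each. Per the labels and the study's methods, the authors trimmed single-end reads with Trim Galore 0.6.4, aligned them to hg19 with STAR 2.6.1d, counted them per gene as reverse-stranded with featureCounts 1.6.4, and deposited raw counts. They also deposited TPM from StringTie. For the IR ChIP-seq they aligned reads with BWA 0.7.17-r1188 and deposited MACS2 2.2.7.1 peaks, annotated by HOMER, each with a score whose making is not given in the sources used here, and the depth of that library is unknown.

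Counts were analysed here in R 4.3.3 with edgeR 4.0.16, using TMM scaling, filterByExpr by time and the quasi-likelihood test. All 10 libraries entered 1 model, with no block for replicates. The standard error is the absolute log2 fold change over the root of F. The 92 ERCC rows (1.59% to 2.36% of counts) were used in neither library sizes nor tests. Adjusted p-values are Benjamini-Hochberg values over the 13852 tested genes, with a threshold of 0.05, and the script was tested on simulated data. Replicates differed by more than sampling noise (chi-square per degree of freedom 2.75 to 6.13) and were kept as separate samples. Expression is given as CPM after TMM and, between genes, as TPM.

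The members and lists were chosen with earlier results of these data known. All 42 members are accounted for. The 8 largest falls and both rises are given by library, the other called members by fold change, members not called where a role group turns on them, and of each other list the largest called rise and fall. Shared stretches of 50 bases were counted over GENCODE transcripts. Alternatives were DESeq2 1.42.0, the likelihood ratio test, RLE, upper-quartile and ERCC scaling, no filter, at least 10 counts in every library, a model of the 2 times alone, a replicate block, limma 3.58.1 on TPM (pseudocounts of 1 and 0.1, and a minimum mean TPM of 1), and each library left out in turn. Peaks and sequences were handled with Python 3.11.15, pandas 2.3.3 and numpy 2.4.6, and figures drawn with matplotlib 3.10.9. The ChIP input was not analysed here.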

Additional observations from a re-analysis of the deposited data

Results flagged for a closer look

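Single members differed between 2 times of the same treatment, by the test of 240 min against 30 min itself (edgeR's quasi-likelihood test, adjusted p under 0.05). At the later time 20 members were lower (51.3%, against 18.4% of all tested genes) and 3 higher (7.69%, against 19.8%). The set as a whole was not tested and was listed with earlier results known. Insulin and elapsed time cannot be told apart here. The log2 fold changes of the lower members were ULK1 (-1.07), RB1CC1 (-0.97), NBR1 (-0.93), GABARAPL1 (-0.73), ATG2A (-0.69), ATG2B (-0.57), PIK3C3 (-0.52), WIPI2 (-0.51), GABARAPL2 (-0.38), ATG9A (-0.36), ATG7 (-0.35), ATG13 (-0.35), MAP1LC3B (-0.34), CTSB (-0.32), OPTN (-0.31), PIK3R4 (-0.31), CTSD (-0.25), ATG14 (-0.23), GABARAP (-0.19) and LAMP2 (-0.17). Those of the higher members were ATG3 (0.18), ATG101 (0.33) and ATG16L1 (0.50). Groups of 2 libraries are too small to look for a library that lies apart from its group.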

How the results depend on the processing

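No called member changed direction under any alternative at 240 min against 0 or 30 min. Against 0 min, 2 rose and 21 fell, with 1 rising and 19 falling with DESeq2, 4 rising with upper-quartile scaling (UVRAG and ATG4A added) and 0 rising and 8 falling with ERCC scaling. With limma on TPM 14 or 15 fell. Leaving out 1 library gave 1 to 2 rises and 16 to 22 falls, with 1 rise without either 0 min replicate or without 240 min replicate 1. Against 30 min, 3 were higher and 20 lower, with 0 and 6 under ERCC scaling, and 1 to 3 higher and 17 to 20 lower with 1 library left out. The low count of higher members, 1, came without 30 min replicate 2, where ATG101 and ATG3 were lost. The cause of these changes was not tested.

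The counts of members with an IR peak were 8, 7 with 1 kb, 10 with 20 kb, 5 with peaks above the median score and 3 by the deposited nearest gene. The 0 called members at 5, 10 and 30 min held under every alternative run, although DESeq2 gave an adjusted p to only 693 genes at 5 min. The replicate block kept 2 rises and 21 falls, the same 23 members. Correlations of deviations between times ran from -0.12 to 0.13, 2 of 10 over 0.1, so no strong effect was shared by replicate number. Such values cannot tell whether the samples were paired, which the labels do not give.

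With 2 libraries per time, the log2 fold changes at 240 min of members with few reads (MCOLN1, ATG4A, TFEB, ATG10) have standard errors of 0.14 to 0.16. Even the value of 0.37 for ATG4A was not called by edgeR (adjusted p = 0.0673), so changes of up to about that size can be missed in these genes.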
